A study of Sus scrofa with 8 samples.

Results

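The coagulation and fibrinolysis genes of pig liver were chosen by name, as the rows of the deposited expression table whose gene symbol was among 33 listed clotting factors, natural anticoagulants and fibrinolytic proteins with their regulators. The table held 31 of them among its 20430 genes, each under 1 gene identifier, and no row under the symbols *PROZ* and *SERPINA10*. The list held 18 procoagulant, 7 anticoagulant and 6 fibrinolytic genes with a row. The donors of the RNA, 24 male pigs of the cross Large White x Landrace, had dietary non-alcoholic steatohepatitis (NASH). All of them, controls included, had eaten a steatotic diet rich in cholate, cholesterol, fructose and saturated fat and poor in methionine and choline for a month. For a further month the 12 squalene pigs received that diet with 0.5% squalene, a terpene made on the way to cholesterol, and the 12 control pigs received it without. Equal amounts of liver RNA from 3 animals were combined in each library, which gave 4 squalene and 4 control pools. Pigs on a normal diet were not analysed here, so each comparison is between livers of pigs on the steatotic diet.

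Clotting is a chain of proteases. Tissue factor with factor VII, or the contact proteins with factor XI, lead to factor X, and factor Xa with its helper factor V turns prothrombin into thrombin, which cuts fibrinogen into fibrin. Antithrombin, protein C with protein S, and tissue factor pathway inhibitor restrain the chain, and plasmin, cut from plasminogen by tissue-type or urokinase-type activator, dissolves the clot. Hepatocytes secrete most of these proteins into plasma, while endothelial cells, macrophages and platelets supply others, such as von Willebrand factor, thrombomodulin and the A chain of factor XIII.

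Expression was given as FPKM, the fragments of a gene divided by its length and by the size of the library, so that levels can be compared between genes of different length. Depth per pool was not used, because the expression table holds no counts. The hepatocyte marker *ALB* took 5.15 to 9.04% of the summed FPKM in squalene pools and 4.36 to 8.62% in control pools, which is part of the total that FPKM is scaled to. The labelled tissue was borne out by its markers, with *ALB* between 27953 and 49354 FPKM in squalene pools and between 24083 and 49218 FPKM in control pools. Platelet and megakaryocyte markers were near 0. The 5 of 6 that had a row summed to 0.98 to 3.56 FPKM in squalene pools and 1.38 to 2.03 FPKM in control pools, and *GP1BA* was at most 0.02 FPKM. In squalene pool 1 the 6 interferon-stimulated genes of a fixed list summed to 5091 FPKM, against 816 to 1071 FPKM in the other squalene pools and 689 to 1491 FPKM in control pools.

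The 31 genes spanned more than 4 orders of magnitude in level, from fibrinogen β (*FGB*), with a mean of 5507 FPKM over the 8 pools, to tissue factor pathway inhibitor (*TFPI*), with 0.236 FPKM. Together they held 3.21 to 3.83% of the summed FPKM in squalene pools and 3.32 to 4.15% in control pools. They formed 2 blocks by level, with no mean over the 8 pools between 7.75 FPKM (*F2R*) and 38.7 FPKM (*F7*). The 21 genes above the gap encode proteins that the liver secretes, and the 10 below it were *F2R*, *PLAUR*, *PLAT*, *PLAU*, *THBD*, *F8*, *F13A1*, *F3*, *VWF* and *TFPI*. In the order of levels, only 8 of 30 neighbouring genes had ranges over the 8 pools that did not overlap. Ranges leave out that the genes were measured in the same pools. *FGG* and *FGA* overlapped in range, yet *FGG* was the higher in every pool, so overlap alone does not settle the place of a gene within a block.

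**Figure D1:**
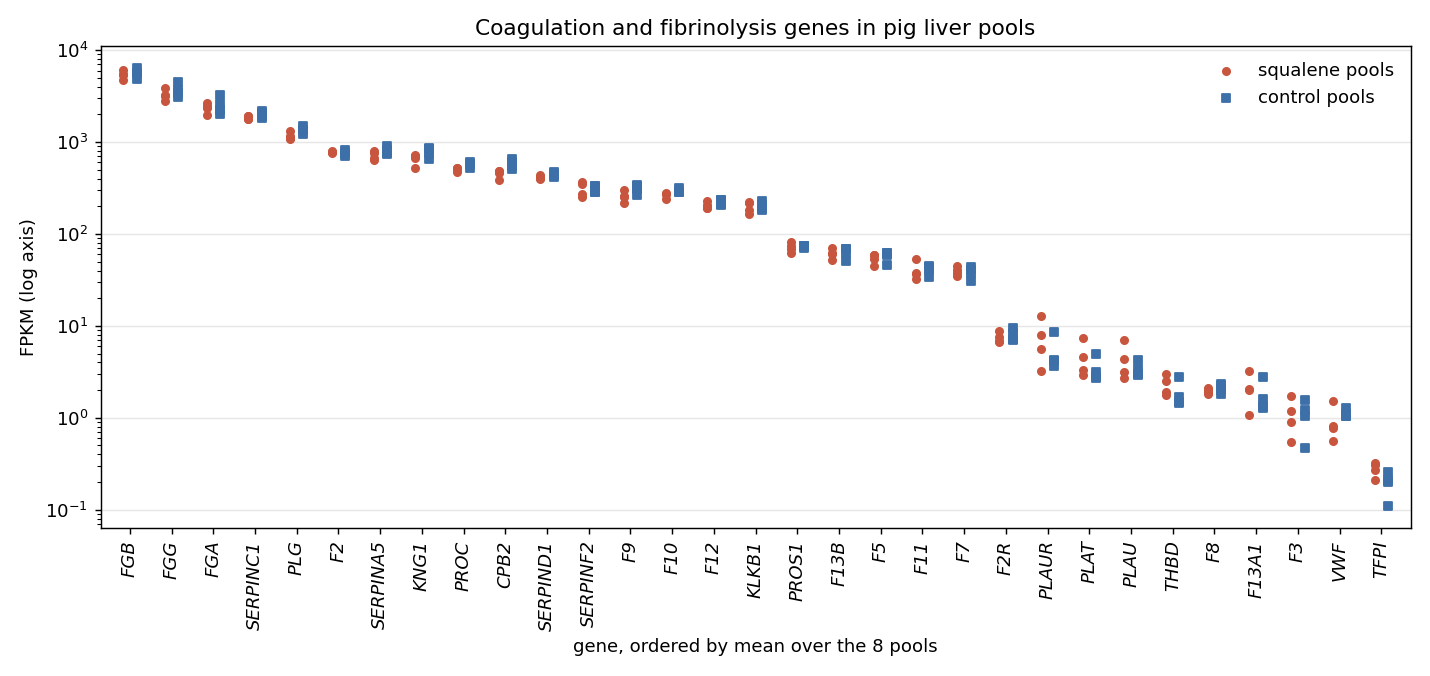
FPKM (log axis) of the 31 genes in each pool, ordered by mean, with squalene pools as circles on the left and control pools as squares on the right of each gene. The fibrinogen genes stand between 1989 and 6419 FPKM, the 10 genes on the right have means under 10 FPKM, and the pools of both diets mostly share their range.

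The comparison of the diets asked whether squalene changed the hepatic expression of these genes. Differences were fitted with limma on the scale log2(FPKM + 0.1). The fit covered 14780 genes whose mean reached 0.1 FPKM, all 31 included. After Benjamini-Hochberg adjustment over all genes tested, 0 of the 31 genes, and 0% of all genes, passed 0.05 in limma, and the adjusted p of each of the 31 was 1.0. At an unadjusted p under 0.05, *CPB2* and *F9* had lower fitted values in squalene livers and no gene had higher ones, beside 2.28% of all genes tested that were lower and 2.08% that were higher. The 2 genes are 6.45% of the 31, beside 4.36% of all genes in either direction. No overlap between squalene and control pools was seen for 2 of the 31, *CPB2* and *F10*, both with all squalene pools below all control pools, beside 1.54% of all genes in that direction and 1.13% in the other. The fitted log2 fold change, squalene over control, was below 0 for 22 of the 31 genes, beside 52.9% of all genes tested. Its median was -0.08, beside -0.01 over all genes, and its largest absolute value was 0.42 (*PLAUR*). In bulk liver RNA, fewer cells of a type and less RNA per cell cannot be told apart.

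**Figure D2:**
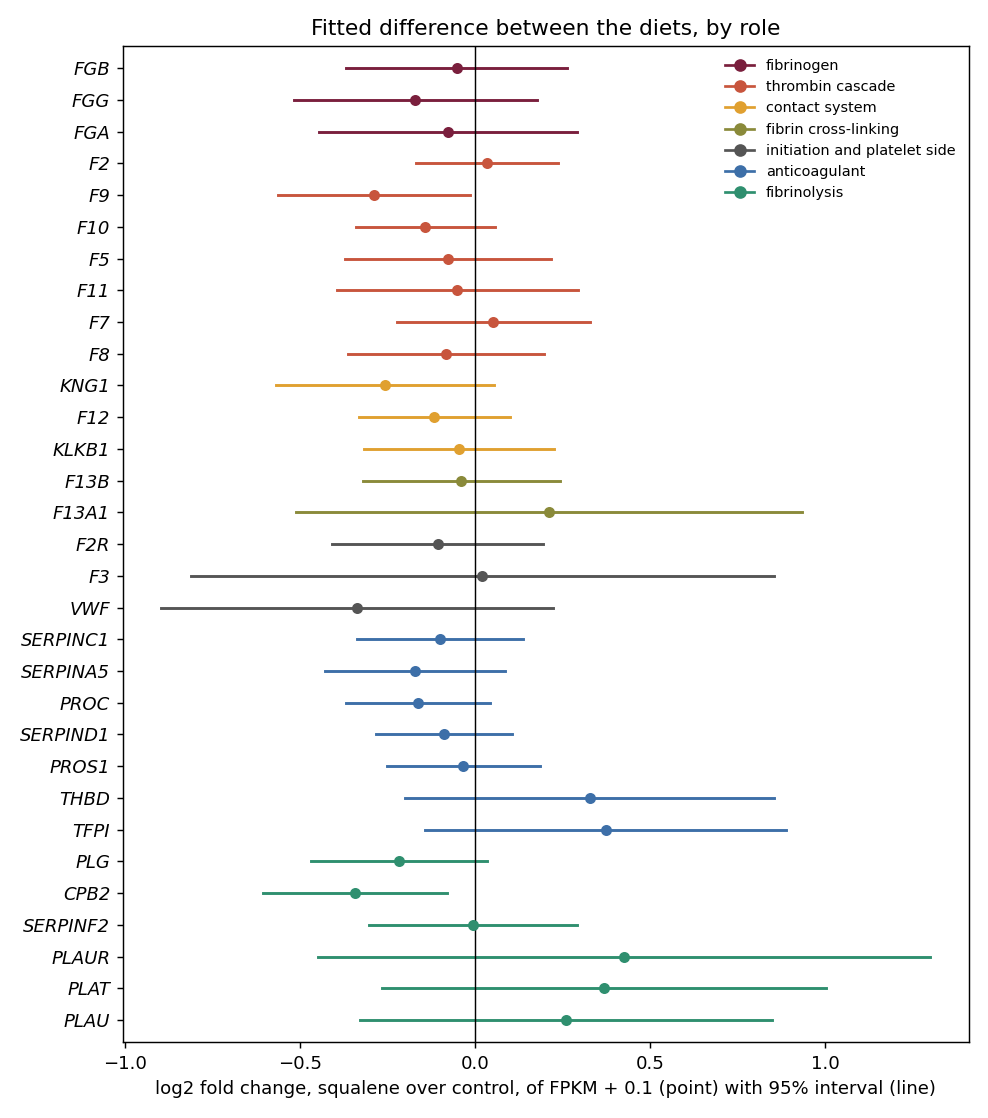
Fitted log2 fold change, squalene over control, of FPKM + 0.1 for each gene with its 95% interval (limma, 4 pools a diet), grouped and coloured by role. The intervals of *CPB2* and *F9* lie below 0 and the other 29 include 0.

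By class, 14 of 18 procoagulant genes had a fitted value below 0 (median log2 fold change -0.08), as had 5 of 7 anticoagulant genes (median -0.09) and 3 of 6 fibrinolytic genes (median 0.13). The fibrinolytic class includes the inhibitors *CPB2* and *SERPINF2*, and the anticoagulant class includes *SERPINA5*, the gene of protein C inhibitor. Neither median therefore has a functional direction. Without squalene pool 1 the fibrinolytic median was -0.04, with 4 of the 6 genes below 0. Over 19 alternatives 11 to 15 procoagulant, 4 to 5 anticoagulant and 2 to 4 fibrinolytic genes lay below 0, and 18 to 22 of all, so the signs of small differences, those of *FGA*, *FGB*, *KLKB1* and *PROS1* among them, depended on the setting. Split at the gap in level, 19 of the 21 genes above it lay below 0 (median -0.09) and 7 of the 10 genes below it lay above 0 (median 0.23). This split was made after the values had been seen and is a description. The direction within the low block rested on squalene pool 1: without that pool 6 of its 10 genes lay below 0 (median -0.02). The count above the gap moved with that pool too, as 14 of the 21 genes lay below 0 without it (median -0.11). Without pool 1 of both diets, 8 of the 10 lay above 0 (median 0.18) and 16 of the 21 higher genes lay below 0 (median -0.15).

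Fibrinogen, the soluble precursor of fibrin and an acute phase protein, is built from Aα, Bβ and γ chains encoded by *FGA*, *FGB* and *FGG*. The genes neighbour each other on chromosome 8 of Sscrofa11.1, *FGG* at chr8:74553040-74562151 and *FGA* at chr8:74574870-74584202 on the plus strand and *FGB* at chr8:74598170-74607409 on the minus strand. Because the 3 chains form 1 protein and their genes are neighbours, the 200 bases before each RefSeq gene start are shown, 5′ to 3′ on the strand of the gene. Capitals mark every match, on either strand, to TTGCNNAA, a form of the site that C/EBP factors bind, or to CTGGGAA, the core of the interleukin-6 response element known from rat fibrinogen genes.
FGA: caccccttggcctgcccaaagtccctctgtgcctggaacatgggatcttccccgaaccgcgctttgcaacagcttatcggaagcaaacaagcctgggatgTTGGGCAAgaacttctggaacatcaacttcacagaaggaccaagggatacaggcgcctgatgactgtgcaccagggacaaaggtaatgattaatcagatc
FGB: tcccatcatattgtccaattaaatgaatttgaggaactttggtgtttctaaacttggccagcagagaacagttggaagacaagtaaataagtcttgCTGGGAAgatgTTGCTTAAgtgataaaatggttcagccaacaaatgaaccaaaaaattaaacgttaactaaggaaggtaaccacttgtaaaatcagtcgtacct
FGG: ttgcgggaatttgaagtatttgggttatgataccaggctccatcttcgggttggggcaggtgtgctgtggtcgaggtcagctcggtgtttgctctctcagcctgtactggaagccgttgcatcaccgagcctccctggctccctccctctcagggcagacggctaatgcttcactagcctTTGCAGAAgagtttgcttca
TTGCNNAA began at -100 in *FGA* (on the opposite strand), -93 in *FGB* and -20 in *FGG*, counted from the gene start. It stood in 7 of the 31 windows of these genes (*FGA*, *FGB*, *FGG*, *KNG1*, *PLAUR*, *SERPINC1* and *TFPI*) and in 6.48% of 20665 windows of the annotation. CTGGGAA began at -104 in *FGB*, without overlap with the other motif, and stood in 5 of the 31 windows (*F13A1*, *F9*, *FGB*, *PLAU* and *PLG*) and in 10.5% of all windows. The motifs were chosen after values had been seen, and a match is a description of letters, not of a bound site.

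*FGB* had 4684, 5345, 6057 and 5527 FPKM in squalene pools 1 to 4, against 5636, 5573, 4819 and 6419 FPKM in control pools 1 to 4. *FGG* had 3138, 2775, 3864 and 3272 FPKM in squalene pools, against 3405, 3689.6, 3111 and 4528 FPKM in control pools. *FGA* had 2496, 1989, 2664 and 2338 FPKM in squalene pools, against 2254, 2602, 2023 and 3234 FPKM in control pools. The diets overlapped for each chain, squalene pool 3 was the highest squalene pool of all 3 genes and control pool 4 the highest of all 8 pools. The log2 fold changes were -0.05 for *FGB* (95% interval -0.37 to 0.26), -0.17 for *FGG* (-0.52 to 0.18) and -0.08 for *FGA* (-0.45 to 0.29), each with an adjusted p of 1.0 in limma. The 3 genes made up 1.79 to 2.32% of the summed FPKM in squalene pools and 1.74 to 2.51% in control pools. The ratio of *FGB* to *FGA* ranged from 1.88 to 2.69 in squalene pools and from 1.99 to 2.5 in control pools.

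**Figure D3:**
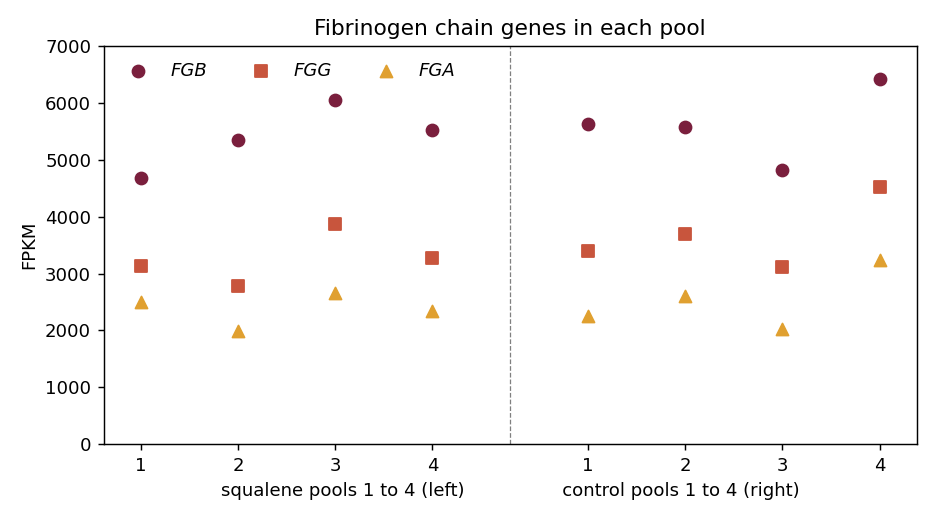
FPKM of *FGB*, *FGG* and *FGA* in squalene pools 1 to 4 (left) and control pools 1 to 4 (right), 1 point a pool. Control pool 4 is the highest pool of each gene, and *FGB* lies above *FGG* and *FGG* above *FGA* in every pool.

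Over the 8 pools, *FGA* and *FGG* correlated with Pearson's r = 0.92 (exact permutation p = 0.0016, adjusted over 3 pairs 0.0048) and Spearman's rho = 0.90 (exact permutation p = 0.0046, adjusted 0.011). *FGB* and *FGG* had r = 0.79 (exact permutation p = 0.022, adjusted 0.032) and rho = 0.88 (p = 0.0072, adjusted 0.011). *FGA* and *FGB* had r = 0.66 (exact permutation p = 0.072, adjusted 0.072) and rho = 0.64 (p = 0.096, adjusted 0.096). The tests were two-sided. Without the 2 pools farthest from the median of the first gene, r was 0.73 (*FGA* and *FGG*, exact permutation p = 0.11), 0.68 (*FGB* and *FGG*, p = 0.13) and 0.49 (*FGA* and *FGB*, p = 0.32), and control pool 4 was among those left out each time. No pair passed 0.05 over the 6 pools left, which are fewer and span a narrower range. After centring within each diet, r was 0.95, 0.79 and 0.65 for the same order of pairs. The genes share libraries and the total that FPKM is scaled to, of which *ALB* is a part, and 4 pools a diet are too few for a correlation within a diet. Among all 465 pairs of the 31 genes, given with no test, the median r was 0.04, and *FGA* with *FGG* ranked sixth.

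Other acute phase genes were set beside fibrinogen. The 8 rows of a fixed list of acute phase proteins (7 symbols, *CRP* under 2 identifiers) summed to 12324 to 15359 FPKM in squalene pools. In control pools they summed to 15016 to 19142 FPKM. Their median log2 fold change was -0.44, and 6 of the 8 lay below 0. *HP* and *ORM1*, the most abundant of the 8 rows, averaged 5796 and 4954 FPKM in squalene pools. Their control means were 6738 and 6822 FPKM, and the diets overlapped for both. *HPX*, the haem carrier haemopexin, had 1583, 1331, 1625 and 1135 FPKM in squalene pools, against 1868, 2123, 1849 and 1800.3 FPKM in control pools. Those pools did not overlap, beside 1.54% of all genes tested that lay apart in that direction. The log2 fold change of *HPX*, a gene picked after its values had been seen, was -0.44 (limma unadjusted p = 0.0095, adjusted 0.9997). *SAA3* (0.28) and a *CRP* row (0.61) lay above 0. The part of these genes' levels in the values of *CPB2*, itself described as an acute phase gene in mouse, and of fibrinogen was not tested.

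Of the thrombin cascade, 7 genes were measured and 5 lay below 0, with log2 fold changes of -0.29 to 0.05. *F9*, on chromosome X, encodes factor IX, the protease that with factor VIII activates factor X. It had 215, 253, 298 and 256 FPKM in squalene pools, against 265, 312, 339 and 329 FPKM in control pools. Squalene pool 3 and control pool 1 overlapped, and the lowest pool was squalene pool 1. The means were 255 ± 33.6 FPKM in squalene pools and 311 ± 32.6 FPKM in control pools (SD, n = 4 each), with a log2 fold change of -0.29 (SE 0.12, 95% interval -0.56 to -0.01, limma unadjusted p = 0.041, adjusted 1.0). Its unadjusted p stayed under 0.05 in 8 of 19 alternatives.

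*F10*, the gene of factor X, neighbours *F7* on chromosome 11. It had 273, 272, 278 and 243 FPKM in squalene pools, against 286, 291, 315 and 286 FPKM in control pools. All squalene pools lay below all control pools, with 278 FPKM in squalene pool 3 next to 286 FPKM in control pool 1. The fitted log2 fold change came to -0.14 (SE 0.09, 95% interval -0.34 to 0.06, limma unadjusted p = 0.14, adjusted 1.0).

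*F2*, the gene of prothrombin and the most abundant of the cascade, had 779, 785, 760.1 and 791 FPKM in squalene pools, against 709, 765, 811 and 760.3 FPKM in control pools. The squalene pools lay within the range of the control pools, and over all 8 pools the coefficient of variation was 3.90%, the smallest of the 31 genes. A log2 fold change of 0.03 was fitted, with a 95% interval of -0.17 to 0.24. *F5*, *F7*, *F8* and *F11* encode the thrombin-forming cofactor V, the partner of tissue factor, the anti-haemophilic cofactor and the protease that activates factor IX. Their log2 fold changes were -0.08, 0.05, -0.08 and -0.05, and their pools overlapped. *F5* shares exon positions with an antisense gene, and whether the library keeps strand is not stated in the sources used, so reads of the 2 genes may be mixed. *F8*, made in the liver mainly by sinusoidal endothelium, stood at 1.81 to 2.12 FPKM in squalene pools and 1.81 to 2.32 FPKM in control pools.

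Among the genes measured, 6 encode vitamin K-dependent proteins, namely *F2*, *F7*, *F9*, *F10*, *PROC* and *PROS1*. They were grouped after the values had been seen. Their summed level was 1888 to 1960.3 FPKM in squalene pools and 1947 to 2165 FPKM in control pools, and 4 of 6 lay below 0, with a median log2 fold change of -0.09. *GGCX*, the carboxylase that these proteins need, averaged 23.4 ± 3.93 FPKM in squalene pools and 25.5 ± 3.62 FPKM in control pools (SD, n = 4 each).

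All 3 genes of the contact system lay below 0. *KNG1*, the gene of kininogen, which carries bradykinin and binds prekallikrein, had 517, 670.1, 709 and 721 FPKM in squalene pools, against 767, 858, 653 and 842 FPKM in control pools. The diets overlapped through control pool 3, and squalene pool 1 was the lowest pool. Its log2 fold change was -0.26 (SE 0.14, 95% interval -0.57 to 0.05, limma unadjusted p = 0.094, adjusted 1.0), and without control pool 3 it was -0.34 (limma unadjusted p = 0.039, adjusted 0.96). Without squalene pool 1 that of *KNG1* was -0.15 (limma unadjusted p = 0.27). *F12*, the protease that starts the contact pathway, and *KLKB1*, the gene of prekallikrein, had log2 fold changes of -0.12 (-0.33 to 0.10) and -0.05 (-0.32 to 0.23) with overlapping pools.

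Factor XIII, which cross-links fibrin, has a catalytic A chain made by macrophages and megakaryocytes and a carrier B chain made by hepatocytes. *F13B*, on an unplaced scaffold, stood at 52.2 to 69.7 FPKM in squalene pools and 51.1 to 69.2 FPKM in control pools. *F13A1* stood at 1.06 to 3.26 FPKM in squalene pools and 1.29 to 2.76 FPKM in control pools. Their log2 fold changes were -0.04 (-0.32 to 0.24) and 0.21 (-0.51 to 0.93). Single pools set that of *F13A1*, which was -0.03 without squalene pool 1 and 0.48 without squalene pool 2.

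The initiator and the platelet side of the system were expressed at low levels. *F3*, the gene of tissue factor, had 1.18, 0.90, 0.55 and 1.72 FPKM in squalene pools, against 1.58, 1.20, 1.05 and 0.47 FPKM in control pools, and rested on 138 fragments over the 4 squalene pools and 136 over the 4 control pools in the authors' added counts. The highest and the lowest pool were the pools numbered 4 of squalene and of control, the ranges overlapped, and the log2 fold change was 0.02 (95% interval -0.81 to 0.85). It was -0.29 without control pool 4 and -0.22 without squalene pool 4. *VWF*, the gene of von Willebrand factor, which carries factor VIII and tethers platelets, had 0.56, 0.78, 1.54 and 0.81 FPKM in squalene pools, against 1.04, 1.11, 1.05 and 1.29 FPKM in control pools.

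Squalene pools 1, 2 and 4 of *VWF* lay below every control pool and squalene pool 3 above every one. For *VWF* the log2 fold change was -0.34 (95% interval -0.90 to 0.22, limma unadjusted p = 0.21, adjusted 1.0), and without squalene pool 3 it was -0.59 (limma unadjusted p = 0.0093, adjusted 0.86). Without squalene pool 1 that of *VWF* was -0.15 (limma unadjusted p = 0.52), so single pools moved it in both directions. Endothelial markers of a fixed list summed to 144 to 182 FPKM in squalene pools and 169 to 189 FPKM in control pools, 6 of 8 lay below 0, and their part in this value was not tested. *F2R*, the thrombin receptor PAR1, stood at 6.6 to 8.87 FPKM in squalene pools and 7.0 to 9.53 FPKM in control pools.

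Of the 7 anticoagulant genes, the 5 made by hepatocytes lay below 0 and the 2 made mainly by endothelium lay above it, and the diets overlapped for all 7. Outside this class the genes of endothelium did not share a side, as *VWF* (-0.34) and *F8* (-0.08) lay below 0 and *PLAT* (0.37) above it. *SERPINC1*, the gene of antithrombin and the most abundant of them, had 1910.3, 1921, 1803 and 1784 FPKM in squalene pools, against 1829, 1901, 2083 and 2154 FPKM in control pools. Control pools 3 and 4 lay above every squalene pool and control pools 1 and 2 within their range. Its log2 fold change was -0.10 (95% interval -0.34 to 0.14).

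*PROC*, the gene of protein C, which when activated cuts factors Va and VIIIa, had 523, 524, 476 and 511 FPKM in squalene pools, against 573, 523, 584 and 599 FPKM in control pools. Control pools 1, 3 and 4 lay above every squalene pool and control pool 2 below the highest. For *PROC* the log2 fold change was -0.16 (SE 0.09, 95% interval -0.37 to 0.04, limma unadjusted p = 0.11, adjusted 1.0). *SERPINA5*, the gene of protein C inhibitor, had 675, 764, 638 and 789.9 FPKM in squalene pools, against 735, 759, 915 and 820.2 FPKM in control pools. Its ranges overlapped and its log2 fold change was -0.17 (-0.43 to 0.09).

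*SERPIND1*, the gene of heparin cofactor II, and *PROS1*, the gene of protein S, had log2 fold changes of -0.09 (-0.28 to 0.11) and -0.03 (-0.25 to 0.18). *THBD*, the gene of thrombomodulin, which turns thrombin towards protein C, had 3.02, 1.76, 1.93 and 2.5 FPKM in squalene pools, against 2.81, 1.43, 1.67 and 1.47 FPKM in control pools. Every squalene pool lay above control pools 2, 3 and 4, and control pool 1 above squalene pools 2, 3 and 4. The log2 fold change of *THBD* was 0.33 (95% interval -0.20 to 0.86, limma unadjusted p = 0.20, adjusted 1.0), and without control pool 1 it was 0.54 (limma unadjusted p = 0.023, adjusted 1.0). Without squalene pool 1 that of *THBD* was 0.19 (limma unadjusted p = 0.44). *TFPI*, which blocks tissue factor with factor VIIa, had 0.31, 0.32, 0.21 and 0.27 FPKM in squalene pools, against 0.26, 0.20, 0.21 and 0.11 FPKM in control pools. It rested on 71 fragments over the squalene pools and 51 over the control pools, overlaps an antisense gene, and had a log2 fold change of 0.37 (-0.14 to 0.89) with overlapping pools. That of *TFPI* was 0.22 without control pool 4, 0.10 with a pseudocount of 1 and 0.53 with a pseudocount of 0.01.

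The fibrinolytic genes held the smallest unadjusted p of the 31. *CPB2* encodes carboxypeptidase B2, also called thrombin-activatable fibrinolysis inhibitor, which is made by the liver and slows fibrinolysis by removing the lysines on fibrin that bind plasminogen. It had 480.4, 464, 488 and 387 FPKM in squalene pools, against 506, 550.1, 651 and 603 FPKM in control pools. All squalene pools lay below all control pools, with 488 FPKM in squalene pool 3 next to 506 FPKM in control pool 1. The means were 455 ± 46.3 FPKM in squalene pools and 577 ± 62.9 FPKM in control pools (SD, n = 4 each), a ratio of 0.788. The log2 fold change was -0.34 (SE 0.12, 95% interval -0.61 to -0.08, limma unadjusted p = 0.016, adjusted 1.0), and *CPB2* ranked 190 by p among the 14780 genes. Its log2 fold change lay between -0.43 and -0.27 in 19 alternatives and its unadjusted p between 0.0099 and 0.049, while its adjusted p was never below 0.86.

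*PLG*, the gene of plasminogen, had 1077, 1108, 1329 and 1165 FPKM in squalene pools, against 1368, 1485, 1223 and 1362 FPKM in control pools. Squalene pool 3 and control pool 3 overlapped, and squalene pools 1, 2 and 4 lay below every control pool. For *PLG* the log2 fold change was -0.22 (SE 0.11, 95% interval -0.47 to 0.03, limma unadjusted p = 0.082, adjusted 1.0). Without squalene pool 3 it was -0.28 (limma unadjusted p = 0.036, adjusted 0.94). *SERPINF2*, the gene of the plasmin inhibitor α2-antiplasmin, stood at 255 to 364 FPKM in squalene pools and 288 to 331 FPKM in control pools, with a log2 fold change of -0.01 (-0.30 to 0.29).

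**Figure D4:**
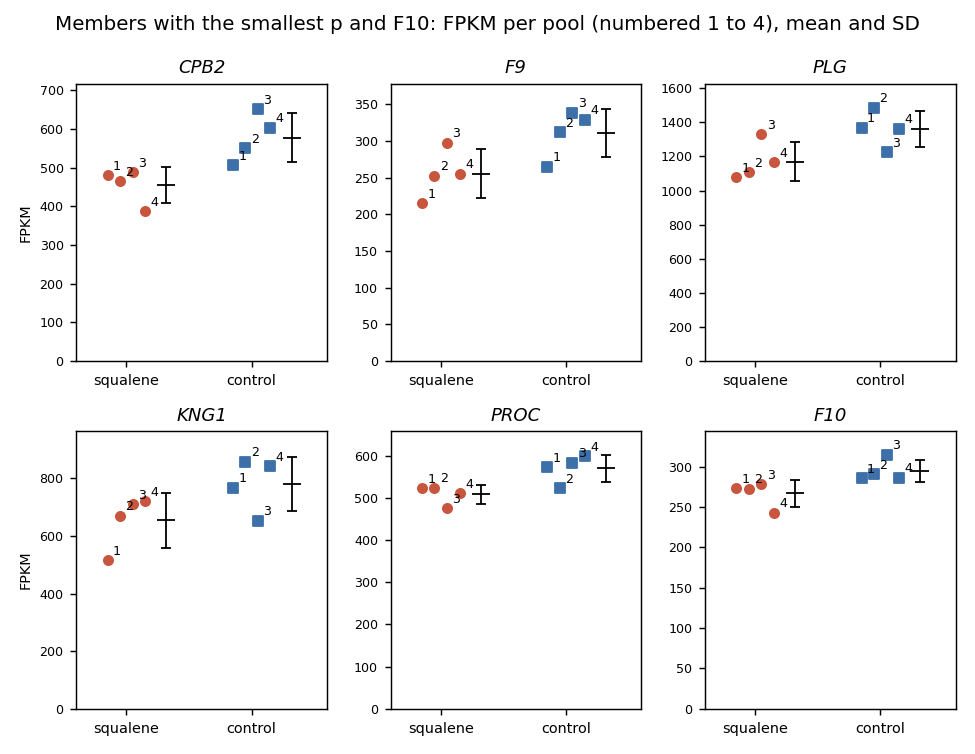
FPKM of *CPB2*, *F9*, *PLG*, *KNG1*, *PROC* and *F10* in squalene pools (circles, left) and control pools (squares, right), numbered 1 to 4, with the mean and SD as a black bar. *CPB2* and *F10* have every squalene pool below every control pool, and the other 4 genes overlap in 1 or more pools.

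The activators of plasminogen and the urokinase receptor spread widely between pools, with coefficients of variation over the 8 pools of 37.0 to 52.7%, beside 3.90 to 16.7% for the 21 genes above the gap in level. Of the other low genes, *F3* (40.9%), *F13A1* (39.9%), *VWF* (30.2%), *THBD* (29.8%) and *TFPI* (29.0%) spread widely too. *F2R* (13.6%) and *F8* (9.13%) spread less. *PLAUR*, the receptor, had 12.9, 5.56, 7.99 and 3.25 FPKM in squalene pools, against 8.6, 4.30, 3.67 and 4.16 FPKM in control pools. *PLAT*, the tissue-type activator of endothelium, had 7.42, 3.35, 4.59 and 2.92 FPKM in squalene pools, against 4.90, 2.83, 3.11 and 2.72 FPKM in control pools. *PLAU*, the urokinase-type activator, had 7.04, 3.12, 4.37 and 2.72 FPKM in squalene pools, against 4.21, 3.38, 2.93 and 3.01 FPKM in control pools. In each of these genes squalene pool 1 was the highest of all pools and control pool 1 the highest control pool, and the diets overlapped. *PLAU* shares exon positions with the antisense gene *CAMK2G*. The log2 fold changes were 0.42 for *PLAUR* (95% interval -0.45 to 1.30), 0.37 for *PLAT* (-0.27 to 1.0) and 0.26 for *PLAU* (-0.33 to 0.85), each with an adjusted p of 1.0 in limma. Without squalene pool 1 they were 0.10, 0.11 and -0.005 in that order, and without squalene pool 4 that of *PLAUR* was 0.76 (limma unadjusted p = 0.050, adjusted 0.99).

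*THBD* and *F13A1* had the same pattern, with squalene pool 1 highest and control pool 1 highest among controls. Over the 8 pools the 10 pairs among these 5 genes had r of 0.62 to 0.96 (median 0.80), given with no test, since the genes were picked for the pattern and share libraries. The median deviation of the 10 low genes from their own means over the 8 pools was 0.44 on the log2 scale in squalene pool 1. It was 0.34 in control pool 1, beside 0.04 and 0.08 for all genes tested. The 10 include the 5 genes picked for the pattern, so this median was in part set by that choice. Of the 10, only those 5 were highest in squalene pool 1, and *F2R* and *VWF* were lowest there. The pools numbered 1 also had the highest sum of interferon-stimulated genes of their diet, 5091 FPKM in squalene pool 1 and 1491 FPKM in control pool 1. The part of that difference between pools in the values of the low genes was not tested. Macrophage markers summed to 592 FPKM in squalene pool 1, against 509 to 574 FPKM in the other squalene pools. Their sum was 500.4 FPKM in control pool 1, the lowest of all pools. Endothelial markers summed to 182 FPKM in squalene pool 1, against 144 to 164 FPKM in the other squalene pools. In control pool 1 the endothelial sum was 189 FPKM, against 169 to 172 FPKM in the other control pools. The part of these cell types in the values of the low genes was not tested either.

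**Figure D5:**
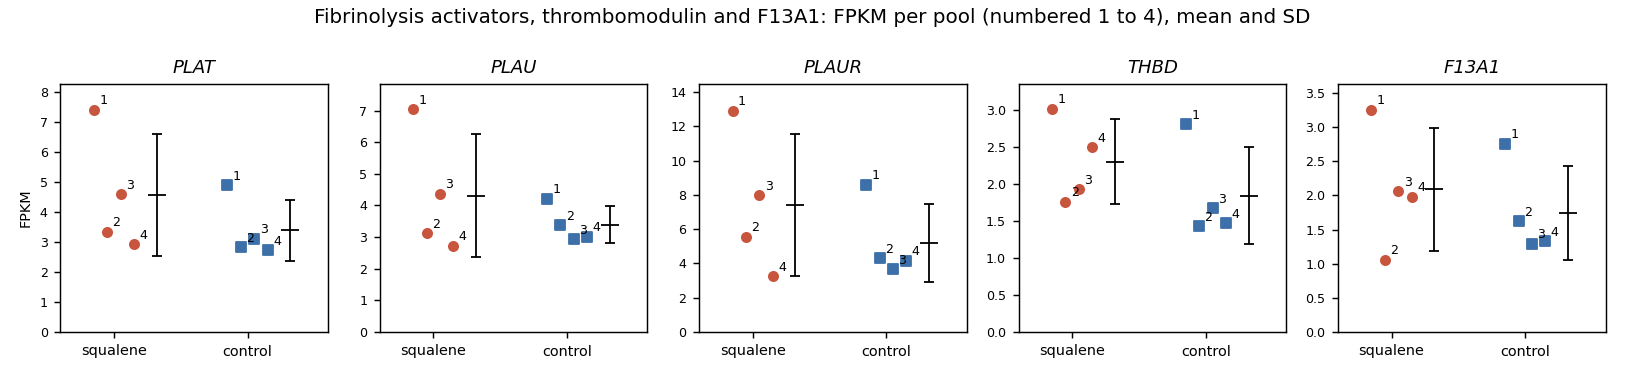
FPKM of *PLAT*, *PLAU*, *PLAUR*, *THBD* and *F13A1* in squalene pools (circles, left) and control pools (squares, right), numbered 1 to 4, with the mean and SD as a black bar. Pool 1 is the highest of its diet in all 5 genes, and squalene pool 1 the highest of all.

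Beyond the 31 genes, 26 other genes of the pathway were listed, of which 25 passed the filter, and 0 passed the adjusted threshold. Fitted values lay above 0 for 11 and below 0 for 14, with a median log2 fold change of -0.01. At an unadjusted p under 0.05, 1 was higher and 2 were lower in squalene livers, beside 2.08% of all genes tested that were higher and 2.28% that were lower. *FGL1*, which encodes a plasma protein related to fibrinogen, had 148, 207, 234 and 179 FPKM in squalene pools, against 273, 315, 257 and 302 FPKM in control pools, without overlap (log2 fold change -0.59, limma unadjusted p = 0.0021, adjusted 0.95). *SERPING1*, the gene of C1 inhibitor, which blocks factor XIIa and kallikrein, had 1040.4, 1050.1, 1299 and 1006 FPKM in squalene pools, against 1339, 1635, 1316 and 1375 FPKM in control pools. Its pools did not overlap either, beside 1.54% of all genes tested that lay apart in that direction. The log2 fold change of *SERPING1* was -0.37 (limma unadjusted p = 0.014, adjusted 1.0).

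*SERPINE2*, an inhibitor of thrombin and plasminogen activators, had 8.30, 6.44, 5.43 and 4.15 FPKM in squalene pools, against 6.02, 3.07, 3.42 and 3.59 FPKM in control pools, with overlap through control pool 1 (log2 fold change 0.59, limma unadjusted p = 0.037, adjusted 1.0). *A2M*, the broad protease inhibitor α2-macroglobulin, averaged 638 ± 61.2 FPKM in squalene pools and 739 ± 88.1 FPKM in control pools (SD, n = 4 each), with a log2 fold change of -0.21 (limma unadjusted p = 0.11, adjusted 1.0). Of 7 transcription factors that drive liver genes, 6 lay below 0 (median -0.18), and *FOXA2* averaged 3.86 ± 0.64 FPKM in squalene pools and 5.10 ± 0.95 FPKM in control pools (SD, n = 4 each, limma unadjusted p = 0.034, adjusted 1.0).

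Sequence differences between the pooled animals were described from the table of single nucleotide polymorphism (SNP) sites, in which each pool has 1 base letter a site. Of 269579 sites, 1151 lay within 30 of the 31 genes, 218 of them in coding exons, 152 in other exon sequence and 781 in introns, and none in *TFPI*. *PLG* held 175 and *CPB2* 109. Of the 575 sites with a base in all 8 pools, 2 separated the diets, with a non-reference base in each squalene pool and the reference base in each control pool. They were 1 intron site of *FGA* and 1 exon site of *F11* outside its coding sequence. The share was 0.348%, beside 0.211% of 113408 such sites in the whole table. At the 12 exon sites of *CPB2*, squalene pools 1 to 4 had a non-reference base at 8, 6, 9 and 10 sites, against 10, 11, 10 and 11 in control pools 1 to 4. Over the 370 exon sites of all the genes these counts were 237, 245, 245 and 226 in squalene pools 1 to 4, against 248, 209, 266 and 261 in control pools 1 to 4. No site of *CPB2* separated the diets. The pools thus differed in sequence at *CPB2* as well as in diet, and the part of either in its level was not tested. None of the 61 splicing events listed in the deposited tables was in any of the 31 genes.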

How the data were processed

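Liver RNA in 8 pools was enriched for poly A, sequenced on DNBSEQ and mapped by the authors to Sscrofa11.1 with HISAT2. FPKM values for each gene in each pool were deposited by the authors. Sources used here state neither how FPKM was computed nor the version of HISAT2. The authors also deposited estimated counts, summed by them across the pools within each diet, which were used for the fragments behind low genes. The log2 ratios, p-values and q-values that the authors deposited beside them were not used. SNP bases and splicing events were described as deposited. FPKM carries no depth per pool, so no counting interval is given. A pool averages 3 animals, so p-values measure the spread between pools, not pigs.

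The diets were compared by limma 3.58.1 (R 4.3.3, trended eBayes) on log2(FPKM + 0.1), adjusted by Benjamini-Hochberg, over genes averaging 0.1 FPKM or more. The fit was tested on simulated data of this comparison (14780 genes, 200 changed, 20 simulations). It recovered 66% of 2-fold and 93.2% of 4-fold changes, with 5.45% false calls. No change under 2-fold was simulated. The largest absolute log2 fold change fitted for a coagulation or fibrinolysis gene was 0.42 (*PLAUR*), which is smaller. How often the fit finds changes of that size was therefore not tested. Fold changes on the scale log2(FPKM + 0.1) understate those of low genes. Positions and promoters came from RefSeq for the same assembly. Python 3.11.15 was used with pandas 2.3.3 and scipy 1.17.1.

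The genes and lists were chosen with earlier results of these data known. Values in every pool are given for the genes with the 8 smallest p, the 4 largest fold changes at 1 FPKM or more, the 6 most abundant, those without overlap, and *F3*, *THBD*, *VWF*, *PLAT* and *PLAU*. The 4 other pathway genes of smallest p are named. *HPX*, *FOXA2* and *GGCX* were chosen after their values were seen. Alternatives covered the pseudocount, filter, scaling, variance model, a block for pool number and each pool left out. TPM without *ALB* and leaving out pool 1 of both diets were added after seeing the data.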

Additional observations from a re-analysis of the deposited data

Results flagged for a closer look

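In 62 groups of 4 pools (31 genes in each diet) the distance of the highest or lowest pool from the others was set against the whole range, and 4 groups passed Dixon's critical value at the 95% level, where chance gives about 1 in 20. *F10* had 243 FPKM in squalene pool 4, against 272 to 278 FPKM in the other squalene pools. *F10* also had 315 FPKM in control pool 3, against 286 to 291 FPKM in the other control pools. *F5*, the gene of factor V, had 46.0 FPKM in control pool 3, against 59.2 to 61.8 FPKM in the other control pools. *PLAUR*, the urokinase receptor, had 8.6 FPKM in control pool 1, against 3.67 to 4.30 FPKM in the other control pools.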

How the results depend on the processing

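None of the 31 genes passed the adjusted threshold under any of 19 alternatives (18 for *TFPI*, which a filter at 1 FPKM removed), in which their smallest adjusted p was 0.86. The log2 fold change kept its side of 0 in all of them for 18 genes and lay on both sides for 13. The count of the 31 genes at an unadjusted p under 0.05 was 2, and was 1 with TPM, median scaling, quantile normalization, eBayes without a trend and TPM without *ALB*, and 1 to 4 when a pool was left out. *CPB2* passed that level in 19 of 19. Over all genes, 0 passed the adjusted threshold, against 1 without the trend, 0 to 1 with a pool left out (1 without control pool 2) and 3 without pool 1 of both diets. The correlation of *FGA* and *FGB* reached 0.73 with median scaling (adjusted exact permutation p = 0.042). With a pool left out, r was 0.40 to 0.89 for *FGA* and *FGB* (0.89, adjusted exact permutation p = 0.013, without squalene pool 1), 0.83 to 0.97 for *FGA* and *FGG*, and 0.63 to 0.90 for *FGB* and *FGG*. *FGA* and *FGG* then lost the adjusted threshold without control pool 4 (r = 0.83), and *FGB* and *FGG* without squalene pool 3 and without each of the 4 control pools (0.76, 0.79, 0.79, 0.78 and 0.63). SNP sites numbered 1151, or 575 with a base in all 8 pools. The causes of these shifts were not tested.

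Pool numbers are shared by both diets, and the sources used do not state that they mark a batch. Deviations of same-numbered pools correlated at 0.09, 0.02, 0.03 and -0.07, and not every pool correlated best with its own number. With 4 pools a diet these values do not decide whether same-numbered pools share more than a number. With a replicate block the count at an unadjusted p under 0.05 was 3 and the count past the adjusted threshold 0. Depth limits the lowest gene, *TFPI*, which rested on 71 and 51 fragments over the squalene and control pools.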
